A study of Homo sapiens with 36 samples.

Results

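Cut&Run peak lists of exogenous HIF-1a were set against those of endogenous HIF-2a in 786-O, a human cell line from clear cell renal carcinoma. In Cut&Run an antibody tethers a nuclease to chromatin, and the short DNA fragments released around the bound protein are sequenced. The members were chosen by their labels: the anti-V5 lists of the 3 samples titled HIF-1a and of the 3 titled HIF-2a KIN, 6 of the 36 samples of the series and 6 of its 18 anti-V5 lists, on chromosomes 1 to 22, X and Y. Together they held peaks in 22236 of the 25783 consensus regions of the series, that is, stretches where overlapping peaks from 2 or more of the 18 lists were merged.

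The HIF-2a KIN line is a homozygous clone in which V5 and Halo tags were placed at the N terminus of the endogenous HIF-2a protein, so that all its values come from 1 clone. The HIF-1a line stably carries exogenous HIF-1a with the same tags, put in by transposon and driven by the weak L30 promoter. Its parent 786-O cells kept their own untagged HIF-2a, which an anti-V5 library does not read. Untagged wild-type (WT) 786-O cells, 3 libraries, gave the antibody background. All lines lack a working VHL protein, both tagged lines make HIF-2a, and no low-oxygen treatment is stated. How much HIF-1a the first line holds beside the HIF-2a of the second cannot be read from peak lists. The series gives 3 biological replicates for each line.

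HIF-1a and HIF-2a are hypoxia-inducible transcription factors whose level is set by oxygen. Each pairs with ARNT (HIF-1β) and binds the hypoxia response element (HRE). With oxygen present, prolyl hydroxylases mark both proteins for the VHL ubiquitin ligase, and loss of VHL leaves them stable. Many clear cell renal carcinomas depend on HIF-2a, and 786-O cells make no functional HIF-1a. HIF-1a is best known for glycolytic genes bound close to the start site, and HIF-2a for growth factor and cell cycle genes and for distal sites.

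The HRE was searched as ACGTG or GCGTG on both strands within 50 bp of the peak summit, the point of highest fragment pileup. The summit of a region was that of its best-ranked HIF-1a peak, or of its best-ranked KIN peak where no HIF-1a library called it. Motif, GC content and position of regions were read there. Each sequence below holds 101 bases of the plus strand of hg38 centred on that summit, with HRE matches in capitals. The sequences show sites of each kind described further on. They were chosen to show an HRE, which most windows lack: 25.6% of the 21760 regions called in any of the 6 lists, after those recurrent in WT were left out, held one, against 14.5% in windows 1000 bp to each side. Regions are named by the nearest start site of a protein-coding gene, which need not be the gene they act on.
The TGFA window at chr2:70596954-70597054, 43031 bp from the start site of the growth factor gene TGFA, and the KCMF1 window at chr2:84946657-84946757 lie in regions that all 6 libraries called near the top of their lists.
TGFA: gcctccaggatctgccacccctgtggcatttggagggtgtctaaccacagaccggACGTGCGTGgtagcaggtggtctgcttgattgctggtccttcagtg
KCMF1: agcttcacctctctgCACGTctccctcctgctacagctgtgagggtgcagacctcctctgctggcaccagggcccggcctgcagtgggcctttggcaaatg
The PJA2 window at chr5:109455906-109456006 lies in a region that HIF-1a added.
PJA2: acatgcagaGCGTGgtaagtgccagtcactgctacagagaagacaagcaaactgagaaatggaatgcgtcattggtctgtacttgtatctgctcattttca
The PHKA2 window at chrX:18847830-18847930 and the SHISA8 window at chr22:41919637-41919737 lie in endogenous regions that no HIF-1a library called.
PHKA2: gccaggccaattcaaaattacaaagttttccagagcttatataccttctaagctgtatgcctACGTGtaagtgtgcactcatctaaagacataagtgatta
SHISA8: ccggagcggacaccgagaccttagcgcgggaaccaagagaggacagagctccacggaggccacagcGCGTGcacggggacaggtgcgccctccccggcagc
The THEMIS2 window at chr1:27875465-27875565 and the MEAK7 window at chr16:84501314-84501414 lie in shared regions with more enrichment in HIF-1a.
THEMIS2: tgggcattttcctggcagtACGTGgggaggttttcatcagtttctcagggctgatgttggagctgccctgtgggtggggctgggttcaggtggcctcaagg
MEAK7: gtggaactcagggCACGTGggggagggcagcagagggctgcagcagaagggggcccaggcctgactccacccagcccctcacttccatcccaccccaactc
The LMF1 window at chr16:952036-952136 and the ANXA4 window at chr2:69734140-69734240 lie in shared regions with less enrichment in HIF-1a.
LMF1: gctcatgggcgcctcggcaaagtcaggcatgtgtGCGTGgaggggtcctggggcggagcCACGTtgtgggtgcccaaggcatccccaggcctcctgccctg
ANXA4: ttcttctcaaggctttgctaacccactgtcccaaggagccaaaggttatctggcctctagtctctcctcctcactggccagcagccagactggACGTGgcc

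The HIF-1a lists were long and alike, and the KIN lists were shorter and uneven. HIF-1a replicates 1 to 3 held 15058, 20572 and 15909 peaks, and the KIN replicates held 3984, 13193 and 7311. WT held 392, 9508 and 743, so that WT replicate 2 stood apart from the other WT libraries. Depth, read from the lowest background in each list, was 0.296 to 0.409 fragments per base in HIF-1a and 0.256 to 0.378 in KIN, and these ranges overlap. Since a caller with a fixed threshold gives longer lists from cleaner or deeper libraries, each comparison was made with full lists and with every list cut to the 3984 peaks with the highest −log10 p, the length of KIN replicate 1. The cut lists were equal in length and not in strength. The weakest peak kept had a −log10 p of 23.0, 47.7 and 26.4 in HIF-1a replicates 1 to 3, and of 5.11, 18.7 and 12.4 in KIN. Where a list holds no peak in a region, binding there was below the caller's threshold, and a lack of binding is not shown.

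HIF-1a took most of the sites of endogenous HIF-2a. Of 5049 regions with a peak in 2 or 3 KIN libraries, HIF-1a replicates 1 to 3 called 86.3%, 93.7% and 88.9%, a mean of 89.7% ± 3.77 (SD, n = 3). WT called 0.574%, 26.2% and 7.23% of the same regions, and the lines did not overlap. This gave p = 0.1 in a two-sided exact permutation test, the smallest that 3 libraries against 3 can give, with an adjusted p of 0.217 over 13 tests. With lists of equal length HIF-1a called 67.5%, 71.4% and 69.6% of 3161 regions. WT replicate 2, the only WT list that long, called 24.3%, and the shorter lists of WT replicates 1 and 3 called 0.759% and 8.10%. Where HIF-1a and HIF-2a summits had to lie within 200 bp, an alternative chosen after seeing the data, the full lists of HIF-1a called 80.7% of the regions. Of regions called in 3 of 3 KIN libraries HIF-1a called 96.4%.

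To read these shares beside what a further KIN library recovers, each KIN library was set against regions called in both other KIN libraries. Each HIF-1a library was set against the same reference sets and given as the mean over them. A KIN value thus rests on 1 set and a HIF-1a value on all, so that the permutation p of this paragraph is a rough guide. With full lists KIN replicates 1 to 3 recovered 51.6%, 94.0% and 87.9%, and HIF-1a replicates recovered 91.0%, 96.4% and 93.1%. HIF-1a thus recovered 15.6 percentage points more on average, with KIN replicate 1 far below the rest and an exact permutation p of 0.3. With lists of equal length KIN recovered 72.4%, 87.2% and 85.6% and HIF-1a 74.3%, 79.0% and 76.6%, a difference of −5.08 points with overlapping lines and an exact permutation p of 0.4. Between libraries of the same number the difference was 1.92, −8.18 and −8.99 points for replicates 1 to 3. On the reference set without KIN replicate 1, HIF-1a libraries called 72.5% to 76.8%, beside 72.4% in that KIN library. On the set without KIN replicate 2 it was 75.7% to 81.1% beside 87.2%, and without KIN replicate 3 74.6% to 79.0% beside 85.6%. At 2000 peaks per list the lines no longer overlapped: KIN recovered 85.2% ± 3.12 and HIF-1a 73.2% ± 2.21 (SD, n = 3), a difference of −12.1 points with an exact permutation p of 0.1. The sizes rested on the KIN libraries used. In an alternative chosen after seeing the data, 1 KIN library was left out and the others were set against their one partner. Without KIN replicates 1, 2 and 3 in turn the difference was 16.8, 27.2 and 24.8 points with full lists and −6.38, −0.199 and −1.98 points with lists of equal length.

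**Figure D1:**
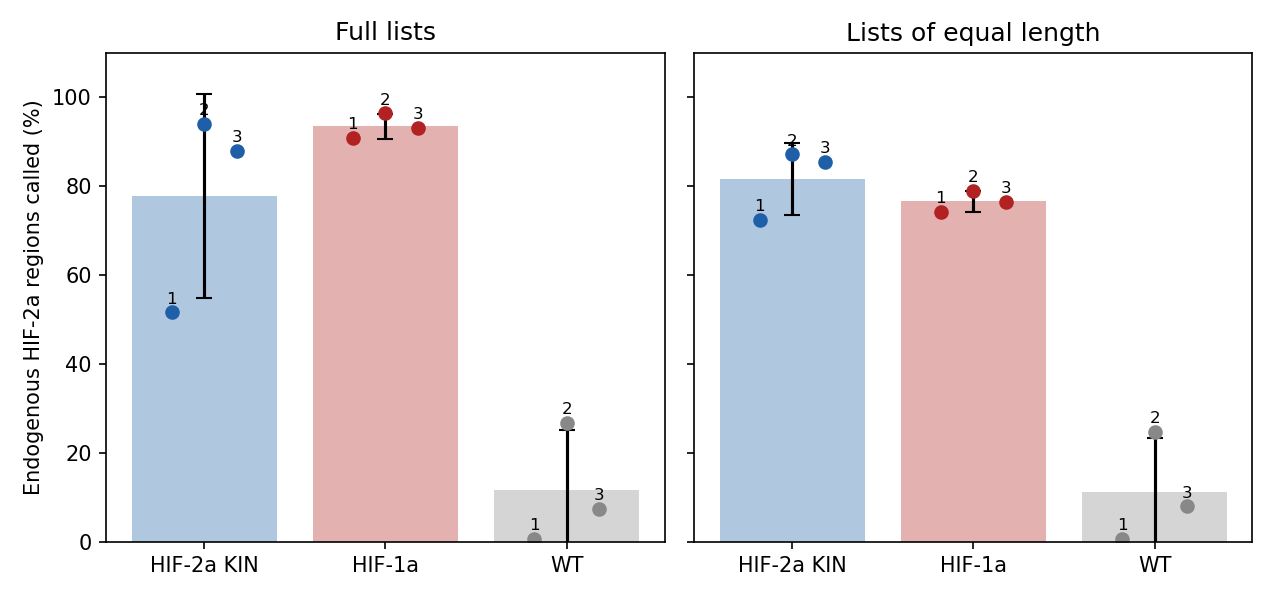
Held-out recovery, the share of regions called in 2 KIN libraries that each library called (y axis, percent; KIN against its other libraries, the others as the mean over the same references), for HIF-2a KIN, HIF-1a and WT, with full lists on the left and lists of 3984 peaks on the right. Numbered points are replicates, and bars and error bars are the mean and SD of 3 libraries. HIF-1a lies above KIN replicate 1 in both panels and below KIN replicates 2 and 3 with lists of equal length.

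The overlap was graded by rank. Peaks in regions called in at least 2 WT libraries were left out of these shares. This left 943, 942 and 946 of the top 1000 peaks by −log10 p in HIF-1a replicates 1 to 3, and 937, 920 and 924 in KIN. Of those left in HIF-1a, 93.0% ± 0.529 (SD, n = 3) lay in regions called in at least 2 KIN libraries and 2.44% in regions called in none. For HIF-1a ranks 1001 to 3984 these shares were 59.8% and 19.5%, for ranks 3985 to 8000 27.7% and 46.0%, and beyond rank 12000 7.47% and 77.3%. In the other direction, 99.5% ± 0.211 of the KIN peaks left among the top 1000 lay in regions called in at least 2 HIF-1a libraries, and 0 in regions that HIF-1a did not call. KIN ranks 1001 to 3984 gave 82.8% ± 12.8. The KIN peaks of these ranks that no HIF-1a library called had little of the features of HIF sites: an HRE excess, the percent of summits with an HRE minus that in the flanking windows, of −3.03, 5.24 and 2.84 points in KIN replicates 1 to 3 (from 742, 105 and 88 peaks) against a mean of 16.8 for those HIF-1a also called, and a mean of 7.20% against 30.4% at promoters. For KIN replicate 1 these ranks are the rest of its whole list. HIF-1a peaks of the same ranks kept an HRE excess of 16.5 points where no KIN library called them, and 19.7 where at least 2 did. The same rank is not the same strength, since at rank 3984 each HIF-1a library had a higher −log10 p than each KIN library. The part of strength in this contrast was not tested.

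**Figure D2:**
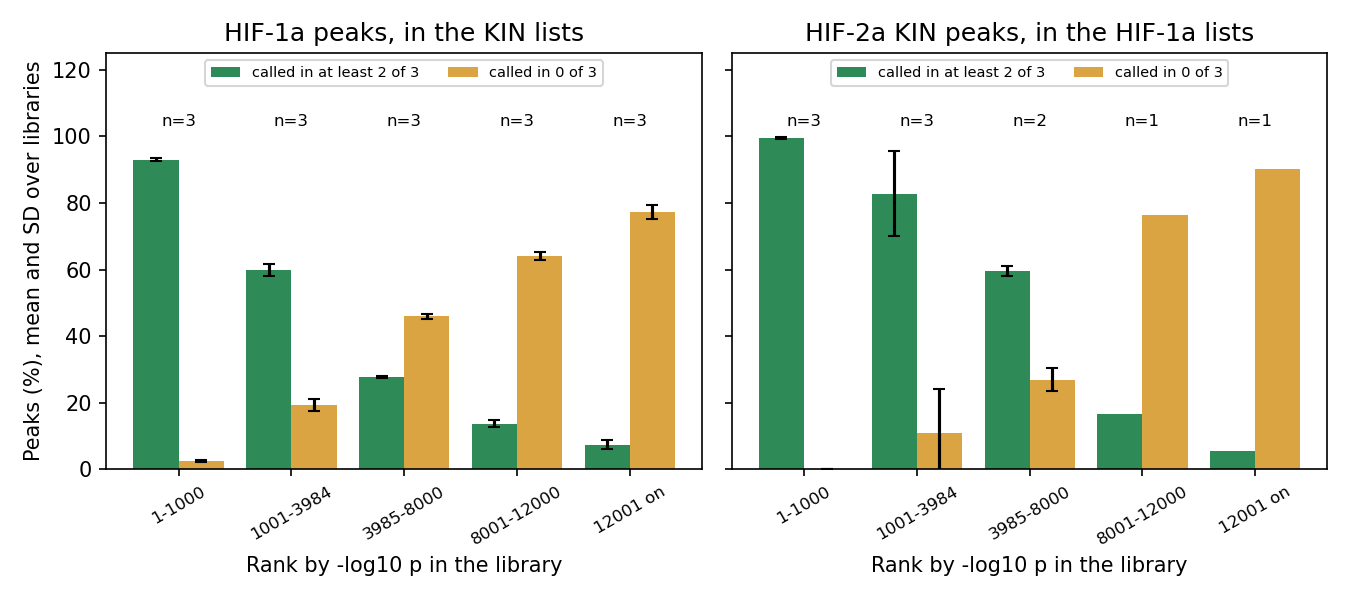
Peaks of HIF-1a (left) and of HIF-2a KIN (right) by rank of −log10 p within the library (x axis), with the percent that lay in regions called in at least 2 (green) or in 0 (yellow) of the 3 libraries of the other line (y axis). Bars and error bars are the mean and SD over the number of libraries printed above them. Peaks in regions called in at least 2 WT libraries are left out. The others in the top 1000 of either line were nearly all called in the other line, and the share fell with each step down the list.

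HIF-1a libraries resembled each other more than KIN libraries did. The Jaccard index, the regions that a pair of libraries share over all those that either called, averaged 0.561 within HIF-1a, 0.359 within KIN and 0.296 between the lines with full lists. With lists of equal length it averaged 0.583, 0.456 and 0.407. The between-line values ran from 0.356 to 0.449 there, and the lowest pair within KIN was 0.435, so that some pairs across lines were as alike as 2 KIN libraries.

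HIF-1a lists lay closer to promoters than KIN lists and, when cut to equal length, held more HREs. With lists of equal length, 37.7%, 33.4% and 34.4% of HIF-1a peaks had their summit within 1000 bp of a protein-coding start site, and 24.2%, 25.4% and 26.2% of KIN peaks did. The lines did not overlap, and HIF-1a exceeded KIN by 9.89 points (two-sided exact permutation test, p = 0.1). With full lists the difference was 7.51 points, again without overlap (exact permutation p = 0.1).

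The HRE excess with lists of equal length was 19.3, 20.4 and 17.4 points in HIF-1a and 13.3, 15.5 and 16.0 in KIN, without overlap (exact permutation p = 0.1). It depended on the list length: the lines differed by 1.93 points at 2000 peaks per list, and with full lists it was 11.6 ± 0.192 in HIF-1a and 11.3 ± 2.84 in KIN (SD, n = 3), a difference of 0.322 points with overlapping lines. With the peaks of a −log10 q of at least 5 it was lower in HIF-1a, 12.9 ± 0.142 against 14.4 ± 2.43 points (SD, n = 3), again with overlapping lines. A line with exogenous HIF-2a in the same vector had an HRE excess of 17.8, 16.6 and 15.6 points with lists of equal length, which overlapped HIF-1a. Its promoter share of 27.0%, 26.3% and 26.1% lay below HIF-1a. GC content at the summit was 57.4% ± 0.775 in HIF-1a and 54.6% ± 1.15 in KIN with lists of equal length (exact permutation p = 0.1), also without overlap. The excess of the AP-1 site, TGACTCA or TGAGTCA on both strands, was 6.89 ± 0.251 points in HIF-1a and 7.21 ± 1.04 in KIN (SD, n = 3), which overlapped, and the sign of the difference turned with full lists (0.394 points).

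**Figure D3:**
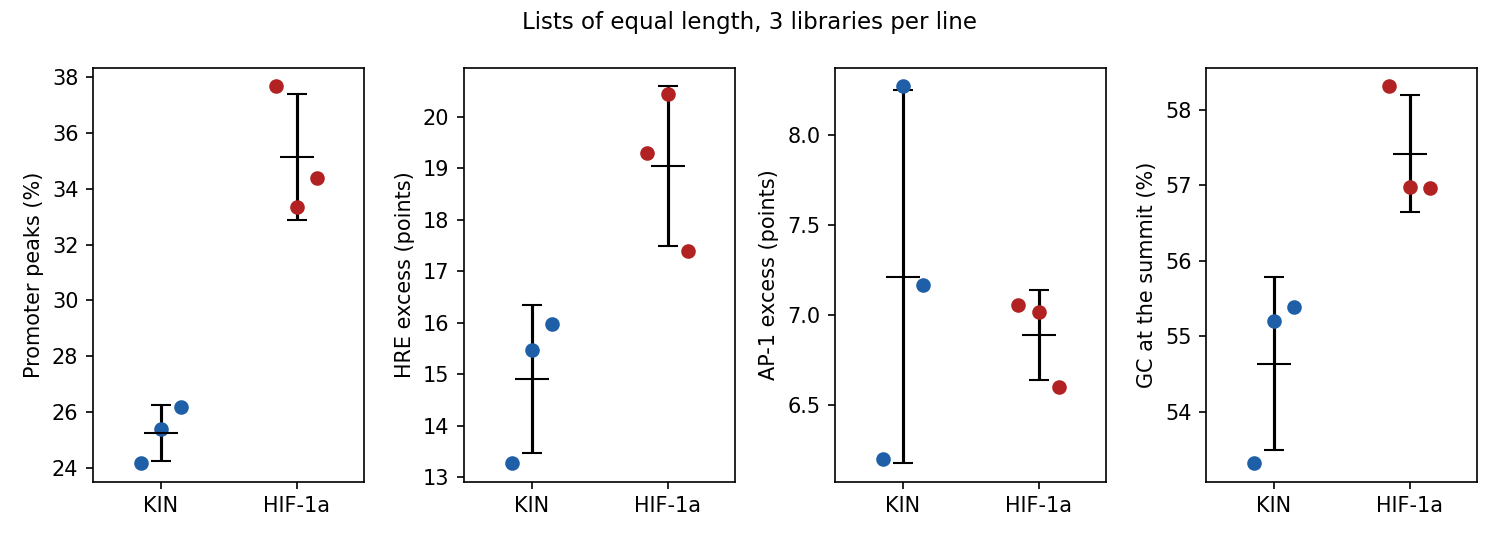
Promoter share, HRE excess, AP-1 excess and GC content at the summit (y axes, percent or percentage points; axes do not start at 0) in lists of 3984 peaks. Points are the 3 libraries of HIF-2a KIN (blue) and HIF-1a (red), and the black marks are the mean and SD. HIF-1a lies above KIN without overlap in all but the AP-1 excess.

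Single regions were then sorted by the number of libraries that called them, after regions called in at least 2 WT libraries were left out. Of 4721 endogenous HIF-2a regions, 4305 were shared (called in at least 2 libraries of each line) and 2026 were called in all 6 libraries, while 145 were called in no HIF-1a library. HIF-1a added 2667 regions, called in 3 of 3 HIF-1a and 0 of 3 KIN libraries, which is 12.3% of the 21760 regions called in any of the 6. In the other direction 13 regions were called in 3 of 3 KIN and 0 of 3 HIF-1a libraries, or 0.0597%. The added count rested on the libraries used (4386 without HIF-1a replicate 1), and so did the 13 (116 without KIN replicate 1, 44 without HIF-1a replicate 2, 37 without KIN replicate 3 and 22 without HIF-1a replicate 3). With lists of equal length, 374 of 7453 regions were added (5.02%) and 141 were not taken (1.89%).

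The added regions spread over the HIF-1a lists. Their median rank in HIF-1a was 7840, and 182 of the 2667 were inside the top 3984 of all 3 HIF-1a lists while absent from every KIN list at full length. Of the 374 regions added with lists of equal length, KIN replicates 2 and 3 called 38.8% and 28.6% lower in their full lists. Of the 141 not taken with lists of equal length, HIF-1a replicates 1 to 3 called 69.5%, 94.3% and 80.1% in their full lists. The count of 141 rose to 311, 228 and 250 when KIN replicate 1, 2 or 3 was left out.

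Added regions lay at promoters more often than shared ones did, and their promoters held the ACGTG form of the HRE less often. Of the 2667, 42.8% lay within 1000 bp of a start site, and of the 182 strongest, 48.9%, against 30.6% of the shared regions, 30.4% of all regions and 0 of the 13 not taken. The HRE excess was 15.2 points in the 2667, 20.1 in the 182 and 17.3 in the shared regions. At promoters, the excess of GCGTG was 15.9 points in the added and 17.5 in the shared regions, whereas that of ACGTG was 4.86 points in the added and 13.6 in the shared. In the 89 promoters among the 182 strongest the values were 23.0 points for GCGTG and 10.1 for ACGTG. Away from promoters ACGTG gave 8.43 points in the added and 10.8 in the shared regions. These are descriptions of region classes without a test, since regions of 1 library set are not replicates. The classes also differed in strength: among regions called in all 3 HIF-1a libraries the median rank was 7840 in the added and 2860 in the shared. Over the promoters of all regions the ACGTG excess was 7.66 points. The part of strength in these contrasts was not tested.

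The AP-1 site, which FOS and JUN proteins bind, was found away from promoters in 200 of 1525 added regions (13.1%), in 10.2% of shared regions and in 13.9% of the 418 regions recurrent in WT. The AP-1 excess was 12.0 points in the added regions beyond 1000 bp, 14.5 in the 93 of these among the strongest, 8.27 in the 2986 shared ones, 8.85 in all regions and 10.8 in those recurrent in WT. At promoters the AP-1 excess was 0.569 points in the added and 1.52 in the shared. The median distance from an added region to the nearest endogenous region was 121344 bp, and 30.3% lay within 50000 bp of one. For the 182 strongest the median was 169028 bp and the share 21.4%. Regions that are endogenous themselves were measured only to the endogenous region before them on the chromosome. The median was then 138958 bp and the share 32.3% for shared regions, and 121147 bp and 35.0% for those called in all 6 libraries. These are not nearest distances and cannot be set beside those of added regions. The values for all regions, 104906 bp and 35.4%, mix both kinds of distance.

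The added regions were also called in other tagged lines. The lines with domain swaps between the proteins called most of the 182 strongest: HIF-1a/2a called 90.1%, 94.5% and 84.6% in replicates 1 to 3, and HIF-2a/1a 87.9%, 97.8% and 82.4%. The exogenous HIF-2a line, which carries HIF-2a in the same vector, called 37.9%, 85.2% and 35.7% of the 182 strongest in replicates 1 to 3, and WT called 0, 7.14% and 1.10%. It called 17.0%, 70.5% and 16.2% of the 2667, with 6590, 20651 and 5906 peaks in its lists. The spread between its libraries went with the length of these lists, and the part that protein level plays in either line was not tested.

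By the naming rule, the added regions with the best mean rank were those near SLC31A1, PPFIA3, PIGT, FAM220A, ARL6, PHIP, ZNFX1, GPR155, PJA2 and HSF2, and 9 of the 10 lay at promoters; only that of PJA2, a ubiquitin ligase gene, lay 45982 bp away. The promoter of SLC31A1, a copper importer (chr9:113220412-113222191), had a fold enrichment of 33.8, 21.4 and 26.8 in HIF-1a replicates 1 to 3, from 146, 345 and 158 fragments at the summit. It ranked 173 on average and was called in no KIN and no WT library. The promoter of HSF2, a heat shock transcription factor (chr6:122399314-122399796), had a fold of 11.4, 20.8 and 26.1, and that of PIGT, a subunit of the enzyme that attaches membrane anchors (chr20:45419471-45420067), had 30.8, 15.1 and 18.7. The promoter of ARL6, a small GTPase of cilia (chr3:97764025-97765027), had 13.4, 61.1 and 29.5. The 10 regions had mean folds of 19.4 to 34.7, and 4 of them held an HRE within 50 bp of the summit. The exogenous HIF-2a line called 9 of the 10 in at least 1 library and those of PIGT, ZNFX1 and GPR155 in 3 of 3.

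The regions that HIF-1a did not take were weak. Of the 13, 12 were called in no WT library, and the 10 named by the rule had mean ranks of 2009 to 4980 in KIN and 10.3 to 27.3 fragments at the summit on average. The best ranked lay in a coding exon of COL4A2, a chain of basement membrane collagen (chr13:110491064-110491471), with a fold of 6.96, 17.4 and 12.8 from 10, 25 and 19 fragments in KIN replicates 1 to 3. One in an intron of FHL2, a LIM domain protein gene (chr2:105411488-105413319), had 8.72, 21.2 and 5.64. The others were near SHISA8, BICD1, SMIM2, PHKA2, BMERB1, PMEPA1, ZNF395 and CDC5L, and none of the 10 lay at a promoter. Those of BMERB1 and CDC5L were called in no library of the exogenous HIF-2a line or of the lines with the HIF-1a/2a and HIF-2a/1a domain swaps. Another intron region of ZNF395 was shared and among the strongest of KIN, as given below.

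The strongest shared regions lay mostly away from promoters. The 10 with the best mean rank were those near KCMF1, AUH, SLC45A1, SEMA4B, BASP1, SEPTIN9, TGFA, GPI, SEMA5B and P4HA1, and only those of GPI, a glycolytic isomerase, and of P4HA1, a collagen prolyl hydroxylase subunit, were promoters. The KCMF1 region (chr2:84945743-84947864) had a fold of 86.8, 111 and 100 in HIF-1a and 21.2, 121 and 43.4 in KIN. The TGFA region (chr2:70595959-70598296), whose sequence above holds 2 overlapping HREs, had 48.9, 43.8 and 32.6 in HIF-1a and 46.5, 100 and 51.3 in KIN. The GPI promoter (chr19:34358237-34360568) had 61.6, 65.9 and 86.4 in HIF-1a and 40.6, 78.0 and 74.3 in KIN, and the lines overlapped at all 3 of these regions. The regions of SLC45A1, SEMA4B and P4HA1 were lower in HIF-1a by the limma fit described further on, with log2 differences of −1.89, −1.53 and −1.47, and these 3 calls held on fragments at the summit (adjusted p in limma of 0.000207 to 0.00296) but not without centring or with quantile normalization. On fragments alone the regions of TGFA, GPI, AUH and SEPTIN9 were also lower in HIF-1a (adjusted p in limma of 0.000234 to 0.00521). Those of KCMF1, BASP1 and SEMA5B passed on neither scale.

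Promoters of hypoxia genes were then read from lists of genes. A promoter was called in a library if a summit lay within 1000 bp of a start site of the gene. Over all 19663 protein-coding genes, 8.06% of promoters were called in at least 2 KIN libraries and 26.9% in at least 2 HIF-1a libraries. Of the 93 genes in 10 lists of hypoxia functions, 57.0% and 69.9% were called. In both lines 51 of the 93 were called, against 1514 of all 19663. WT called 1 of the 93, SLC16A3, in at least 2 libraries. The promoters called in at least 2 HIF-1a and in 0 KIN libraries made up 12.8% of all genes, and 8 of the 93, a share no higher than that background. Promoters called in at least 2 KIN and in 0 HIF-1a libraries made up 0.0865% of all genes, and none of the 93 was among them.

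Glycolysis was shared almost in full. Of 20 genes for glucose uptake and glycolysis, 19 had a promoter peak in at least 2 libraries of both lines, and the 1 other, ALDOC, had none in either. LDHA, which turns pyruvate into lactate, had folds of 36.2, 40.3 and 21.7 in HIF-1a and 44.3, 85.4 and 27.5 in KIN, so that the lines overlapped. PGK1, the ATP-forming kinase of glycolysis, had 26.3, 91.3 and 20.5 in HIF-1a and 16.2, 41.3 and 22.3 in KIN. Inside lists of equal length 14 of the 20 remained called in both lines, against 746 of all 19663 genes. SLC2A3, a glucose transporter, and PFKP, a phosphofructokinase, were then called in 2 KIN libraries and in no HIF-1a library. Of all 19663 genes, 109 were called there in at least 2 KIN libraries and in no HIF-1a library. PKM, pyruvate kinase, was called in 3 KIN libraries and PFKFB3, which makes an activator of phosphofructokinase, in 2, each with 1 HIF-1a library. ENO2, an enolase, was called in 2 HIF-1a libraries and 1 KIN library.

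Of the genes for pyruvate fate and mitochondria, 6 of 10 were called in both lines, among them BNIP3 and BNIP3L, receptors for mitophagy. PDK1, the kinase that shuts pyruvate out of mitochondria, was called alike, with folds of 45.8, 73.5 and 36.2 in HIF-1a and 39.5, 81.2 and 39.3 in KIN. Histone demethylases were shared in 5 of 6 genes and circadian and other repressors in 5 of 6, with CRY2 in HIF-1a alone. Stress and growth control genes were shared in 4 of 8.

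Oxygen sensing held 4 of the 8 additions. Of 10 genes, EGLN1, the main HIF prolyl hydroxylase, and CITED2, which competes with HIF for its coactivators, were called in both lines. EGLN2, HIF1AN, EPAS1 and HIF1A, which code for another prolyl hydroxylase, the asparaginyl hydroxylase, HIF-2a and HIF-1a themselves, were called in at least 2 HIF-1a and in 0 KIN libraries. Most ranked low: EPAS1 had folds of 17.2, 3.80 and 8.29 and HIF1A 5.99, 5.22 and 7.15 in HIF-1a replicates 1 to 3, and WT replicate 2 also called HIF1A, with 5.19. The KIN line carries its tags in EPAS1 and the HIF-1a line carries HIF1A coding sequence in its vector, and their part in these calls was not tested. EGLN3 went the other way, called in 2 KIN libraries and 1 HIF-1a library, all with folds under 5.

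Single targets differed in rank. CA9, the carbonic anhydrase often used as a HIF-1 marker, had promoter folds of 18.0, 21.2 and 13.6 in HIF-1a at ranks 2237, 3312 and 4184, and in KIN it was called in replicate 2 alone, with 7.06 at rank 6874. ANGPTL4, a secreted regulator of lipoprotein lipase, had 13.9, 27.4 and 17.0 in HIF-1a, and 3.94 and 4.22 in KIN replicates 2 and 3, with no call in replicate 1. P4HA2, a collagen prolyl hydroxylase subunit, was inside the equal-length list of all 3 HIF-1a libraries and called in KIN replicate 2 alone, at another of its start sites, while WT replicate 2 called it with 9.30. At these genes each HIF-1a value was above each KIN value.

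At other genes the order of ranks was the reverse, although ranks come from lists of unequal length. STC2, a secreted glycoprotein hormone, had promoter folds of 8.42, 8.12 and 12.5 in KIN at ranks 1131, 1670 and 1429, and in HIF-1a it was called in replicate 1 alone, with 4.66 at rank 12856; WT replicate 2 called it with 9.86. ADM, the vasodilator adrenomedullin, was called at ranks 1623, 1619 and 1653 in KIN and at 6132 and 8466 in HIF-1a replicates 1 and 3, with overlapping folds of 5.95, 14.2 and 10.8 in KIN and 7.89 and 6.15 in HIF-1a. CA12, another carbonic anhydrase, was called at ranks 2092 and 3204 in KIN replicates 1 and 2 and at 8186, 9035 and 9266 in HIF-1a, with overlapping folds of 7.53 and 12.5 in KIN and 7.79, 9.64 and 7.79 in HIF-1a.

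Of 10 growth and cell cycle genes linked to HIF-2, TGFA and PLIN2 were among those called in both lines. The promoter of CCND1, the cyclin D1 gene, was called in KIN replicate 2 alone, with a fold of 10.1 at rank 3358, and in no HIF-1a library, while all 6 libraries had a peak within 50 kb of it. IGFBP3 and PLAUR were called in 3 HIF-1a libraries, with 0 and 1 KIN libraries. Of 10 angiogenesis genes 3 were called in both lines, and VEGFA had folds of 41.3, 37.3 and 41.2 in HIF-1a and 23.8, 89.3 and 27.7 in KIN. In pH control, CA12 alone of 5 genes was called in both. Matrix genes gave 3 of 8 in both, with LOXL2 in HIF-1a and no KIN library. For comparison, 5 of 8 AP-1 subunit genes were called in both lines and FOSB in HIF-1a with 1 KIN library. The lists were drawn up with results of these data known and are no independent evidence.

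**Figure D4:**
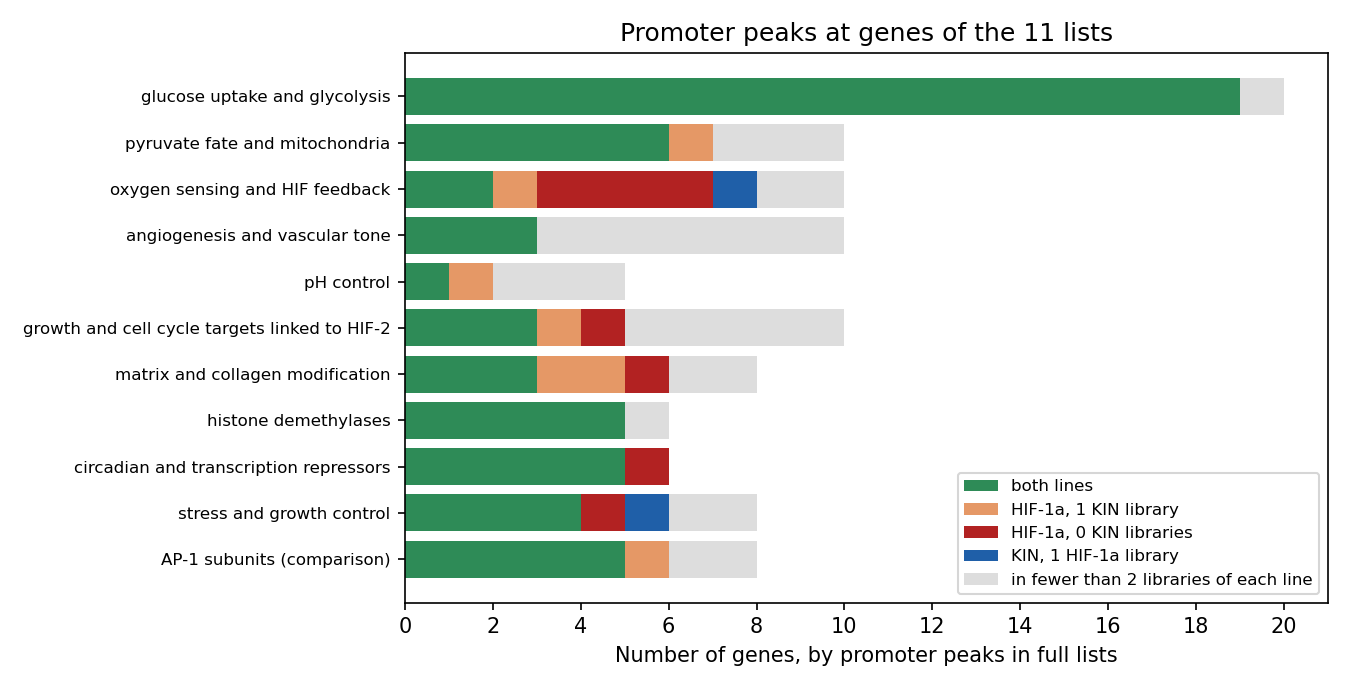
Number of genes (x axis) in each of 11 gene lists by the libraries that called a promoter peak, with full lists. Colours give genes called in at least 2 libraries of both lines, of HIF-1a with 1 or 0 KIN libraries, of KIN with 1 HIF-1a library, or of neither. Glycolysis is called in both lines in 19 of 20 genes, and oxygen sensing holds 4 of the 8 genes called in HIF-1a and in no KIN library.

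At the 2026 regions called in all 6 libraries, the size of the enrichment was compared with limma on log2 fold enrichment, centred on the median of each library. In HIF-1a 33 regions were higher (1.63%) and 78 lower (3.85%) at an adjusted p under 0.05. The split depended on the scale: without centring 138 were higher and 6 lower, with a median difference of 0.61 (log2) over all regions, and with quantile normalization 48 and 44. Leaving out KIN replicate 2 left 10 and 22, KIN replicate 1 15 and 39, and HIF-1a replicate 3 20 and 38. Directions below are therefore relative to the bulk of shared regions. With the fragments at the summit in place of the fold, an alternative chosen after seeing the data, 276 were higher and 393 lower, and 91 of the 111 calls were among them in the same direction.

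The regions higher in HIF-1a held an HRE more often: 18 of 33 (54.5%), against 19 of 78 (24.4%) of those lower in HIF-1a and 33.8% of all 2026. Promoters made up 39.4%, 19.2% and 29.2% in the same order, and mean GC content was 60.8%, 50.5% and 55.8%. Motif and position took no part in choosing these regions. They were read at the best-ranked HIF-1a summit, also in regions lower in HIF-1a. The KIN summits of these regions were not read, so that the contrast holds for HIF-1a summits only.

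The region in an intron of THEMIS2 (chr1:27875282-27875831) had folds of 33.8, 39.5 and 70.2 in HIF-1a and 3.23, 7.50 and 5.92 in KIN, a log2 difference of 2.39 ± 0.477 (SE) with an adjusted p of 0.000166 in limma. The IMPDH1 promoter, of an enzyme of guanine nucleotide synthesis (chr7:128409769-128410997), had 25.7, 108 and 56.7 in HIF-1a and 5.23, 11.9 and 5.92 in KIN. The SLC50A1 promoter, of a sugar transporter (chr1:155134947-155136583), had 16.0, 75.2 and 58.5 against 4.93, 7.72 and 7.33. The lines did not overlap at these regions. The 10 with the largest differences, with MEAK7, PDS5B, CROCC, DCBLD2, GALNT2, CKAP2L and LRP12, had log2 differences of 1.77 to 2.39 and kept their direction under each scaling, while CROCC and CKAP2L missed the threshold on fragments (adjusted p in limma 0.0630 and 0.111).

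The largest difference of all was lower in HIF-1a, at the promoter of ZNHIT1, a subunit of a chromatin remodelling complex (chr7:101217420-101219146). Its folds were 7.95, 6.85 and 6.41 in HIF-1a and 33.6, 63.1 and 50.5 in KIN, a log2 difference of −3.48 ± 0.477 (SE). The region 55334 bp from HK2, the hexokinase gene (chr2:74778021-74779786), had 13.2, 20.6 and 23.2 in HIF-1a and 51.9, 148 and 50.9 in KIN, and the one 59853 bp from LIF, a cytokine gene (chr22:30181880-30189430), 18.0, 22.4 and 9.06 against 33.5, 66.1 and 37.5. An intron region of ZNF395 had 32.5, 41.5 and 18.2 against 77.2, 232 and 110. All 3 KIN values were above all 3 HIF-1a values at these regions. The 10 named, with CPLX4, LMF1, ANXA4, SEPHS2, TTC21B and HOXB9, had log2 differences of −3.48 to −2.17, and all stayed lower in HIF-1a under each scaling, although SEPHS2, LIF, TTC21B and HOXB9 missed the threshold without centring (adjusted p in limma from 0.0612 to 0.0844).

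**Figure D5:**
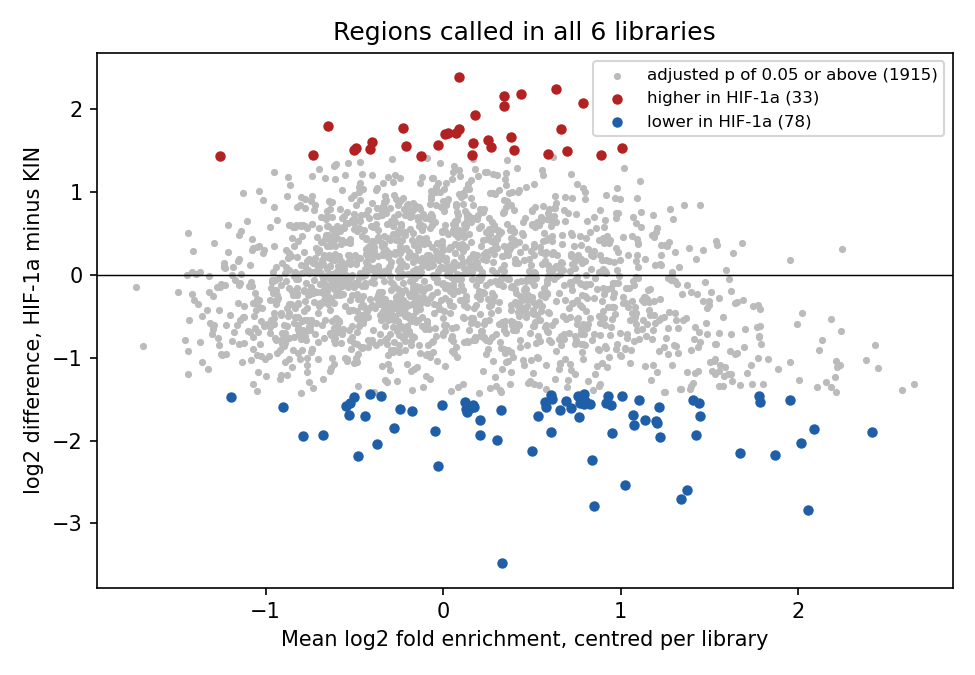
Difference in log2 fold enrichment, HIF-1a minus HIF-2a KIN (y axis), against the mean log2 fold enrichment centred per library (x axis), for the 2026 regions called in all 6 libraries. Each point is 1 region; red points (33) were higher and blue points (78) lower in HIF-1a at an adjusted p under 0.05, and the deepest blue point, at −3.48, is the ZNHIT1 promoter.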

How the data were processed

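The authors aligned Cut&Run reads to hg38 with bowtie2 2.3.4.1 (local alignment, fragment lengths from 10 to 700 bp), called peaks with MACS2 for each anti-V5 library over its matched IgG control (q threshold 0.01, gaps up to 400 bp, duplicates kept, replicates not pooled) and removed blacklisted regions with bedtools 2.28.0. The MACS2 version is not given in the sources used here. Each list as deposited gives positions, summit offset, fold enrichment over local background (a ratio), and 2 −log10 columns, for p and q.

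The members and gene lists were chosen with earlier results of these data known. Lists were merged where peaks overlapped by at least 1 bp. Whole fragments at each summit, and the background there, were found as the pair that gives both the fold and the −log10 p (100% of peaks matched within 0.01 in all 6 lists) and are unscaled; the lowest background was taken as depth, and read totals are unknown. Genes came from GENCODE release 44 on the same build. Library values were compared with two-sided exact permutation tests (none under 0.1 possible), with Benjamini-Hochberg adjustment over 13 tests, and p-values measure the spread between these libraries only. Shared regions were tested with limma 3.58.1 in R 4.3.3, which fitted 1 common spread. On data simulated for these 2026 regions it recovered 4% of changes of 1 and 62% of changes of 2 on the log2 scale. Named regions are the 10 of lowest mean rank among added regions inside all 3 equal-length HIF-1a lists (none in KIN or WT), among those not taken and among shared ones, the 10 largest limma differences each way, and gene list members. Python 3.11.15, pandas 2.3.3 and SciPy 1.17.1 were used. IgG libraries were not analysed separately here. Some items are not reported here.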

Additional observations from a re-analysis of the deposited data

How the results depend on the processing

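Peak lists hold no signal where no peak was called, so that differences in calls are also differences in threshold, and list length differed between the lines by more than depth did. With 3 libraries a line no single test could pass 0.05. The share of endogenous regions called by HIF-1a (89.7%) was 96.4% for regions called in 3 of 3 KIN libraries, 69.5% with lists of equal length and 80.7% with summits within 200 bp, the latter pair chosen after seeing the data. Requiring the summit inside the merged region changed nothing by construction. Leaving out 1 library at a time gave 87.6% to 95.8%. The differences in promoter share and GC content kept their sign under every alternative run. The difference in HRE excess turned with the peaks of a −log10 q of at least 5. There the HRE excess was 12.9 ± 0.142 points in HIF-1a and 14.4 ± 2.43 in KIN (SD, n = 3), with overlapping lines. It kept its sign under the other alternatives. Held-out recovery was higher in HIF-1a with full lists (14.2 to 27.2 points with 1 library left out) and lower with lists of equal length (−6.38 to −0.199 points), so that its sign turned with list length. The AP-1 difference turned to 0.394 points with full lists and ran from −0.828 to 0.207 points with 1 library left out, turning without KIN replicate 2. Added regions with full lists numbered 2783 to 4386 with 1 library left out. With lists of equal length they numbered 241 when lists were ordered by fold and 188 at 2000 peaks, and 442 to 539 with 1 library left out. Regions not taken numbered 18 to 116 with full lists and 174 to 311 with lists of equal length when 1 library was left out. Shared regions higher in HIF-1a numbered 138 without centring, 276 on fragments and 10 to 26 with 1 library left out. Those lower numbered 6 without centring, 44 with quantile normalization, 393 on fragments and 22 to 77 with 1 library left out. The causes of these moves were not tested.

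Region by region, replicate numbers showed little pairing between the lines: deviations of same-numbered libraries correlated at 0.026, 0.082 and 0.025 on log2 fold and at −0.023, −0.024 and 0.009 on calls. These correlations cannot show a shift common to all regions of a library. Replicate 2 held the longest list in each line, with 20572 peaks in HIF-1a, 13193 in KIN and 9508 in WT. List length thus went with the replicate number, and the cause was not tested. With the replicate number as a block, limma called 38 regions higher and 94 lower, and the exact tests cannot go under 0.25, which was the value for the differences in promoter share (9.89 points), HRE excess (4.13 points), GC content (2.78 points) and full-list recovery (15.6 points). It was 0.5 for recovery with lists of equal length (−5.08 points) and 0.75 for the AP-1 excess (−0.322 points).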
